A study of Schizosaccharomyces pombe with 87 samples.

Results

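The core histone genes of fission yeast, Schizosaccharomyces pombe, are described here as annotated loci: hht1, hht2 and hht3 for histone H3, hhf1, hhf2 and hhf3 for histone H4, hta1 and hta2 for histone H2A, htb1 for histone H2B, and pht1 for the variant H2A.Z. They were taken by gene name from the deposited annotation called the all-chromosomes annotation here, and all 10 were found among its 12633 gene records, 5113 of which are protein-coding. In the other deposited annotation, called the tetarr6 annotation here, the product named a histone for 10 of 10, and its proteins were equal in 10 of 10 to those translated from the RefSeq genome (ASM294v3).

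The series measured H3K9me2 and H3K9me3, histone H3 with dimethylated or trimethylated lysine 9, by chromatin immunoprecipitation and sequencing of 87 libraries, 48 of them immunoprecipitated and 39 input. The strains labelled ectopic (56 libraries) had the genotypes clr4Δ, mst2Δ set1Δ, swi6Δ, the double mutants swi6Δ mst2Δ and swi6Δ set1Δ, the triple mutant swi6Δ mst2Δ set1Δ and wild type, and those labelled endogenous (31 libraries) had the same ones except clr4Δ and mst2Δ set1Δ. All were cultured in YEA medium at 32 °C and harvested in log phase, and swi6 encodes an HP1 protein, clr4 the H3K9 methyltransferase, mst2 a histone acetyltransferase and set1 the H3K4 methyltransferase. Both files used here are annotations with no value of a library: 0 of 58359 records of the all-chromosomes annotation and 0 of 40352 records of the tetarr6 annotation carry a score, so library depth is unknown and genotypes were not compared. The values given are annotated positions, lengths and counts, which have no replicates and no sampling error.

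Core histones form the octamer around which DNA is wrapped: a tetramer of H3 and H4 flanked by dimers of H2A and H2B. H3 is the protein whose lysine 9 is methylated by Clr4 in heterochromatin and whose lysine 4 is methylated by Set1, while H2A.Z replaces H2A in some nucleosomes. Transcription of most core histone genes peaks around S phase, and in fission yeast their promoters carry a repeated box, AACCCT, that the GATA-type factor Ams2 is known to act through.

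The box stood as a tandem repeat at 5 histone loci, beside 9 of the 10 genes, and 4 of these places are shown first because the repeat is the sequence these genes have in common. Each line gives 30 bases of RefSeq ASM294v3 read 5′ to 3′ on the strand stated, with the tandem AACCCT in capitals. The hht1-hhf1 site lay at chrI:4699643-4699672 on the plus strand, the hht2-hhf2 site at chrII:1365051-1365080 on the minus strand, the hht3-hhf3 site at chrII:3529618-3529647 on the plus strand, and the hta2 site at chrI:4053362-4053391 on the minus strand.
hht1-hhf1: ctgcatcaaAACCCTAACCCTgcttttgat
hht2-hhf2: gtcaatcacAACCCTAACCCTgatttaaga
hht3-hhf3: tttgatcacAACCCTAACCCTttaattaaa
hta2: atccatcaaAACCCTAACCCTgtatattgc

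The 4 sites shown shared more than the box, since 17 of the 30 columns were identical in their windows, 12 of them the box itself. At each of the 4 divergent pairs a single tandem copy lay between the genes of the pair, so 5 copies lay beside 9 genes. Where each copy shown lay and how rare the repeat is among other promoters is given after the loci.

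The histone H3 genes, which encode the protein carrying the lysine that both of the study's marks sit on, lay on chromosomes I and II. In the all-chromosomes annotation hht1 (SPAC1834.04) lay on chromosome I at 4699732 to 4700560 on the plus strand. The hht2 gene (SPBC8D2.04) lay on chromosome II at 1365119 to 1365818 on the plus strand, and hht3 (SPBC1105.11c) lay on chromosome II at 3535339 to 3536104 on the minus strand. Their partners encode H4, the other subunit of the tetramer. The hhf1 gene (SPAC1834.03c) lay on chromosome I at 4698773 to 4699599 on the minus strand, hhf2 (SPBC8D2.03c) on chromosome II at 1364189 to 1364984 on the minus strand, and hhf3 (SPBC1105.12) on chromosome II at 3536306 to 3536927 on the plus strand. Every H3 gene thus had an H4 gene next to it on the other strand.

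Of the genes of the H2A and H2B dimer, hta1 (SPCC622.08c) lay on chromosome III at 1409337 to 1410374 on the minus strand. The htb1 gene (SPCC622.09), the single H2B gene, lay beside it at 1410552 to 1411870 on the plus strand. The hta2 gene (SPAC19G12.06c) stood apart from any other histone gene, on chromosome I at 4052446 to 4053318 on the minus strand. The H2A.Z gene pht1 (SPBC11B10.10c) also stood alone, on chromosome II at 1502203 to 1503444 on the minus strand. Chromosome I thus held 3 of the genes, chromosome II 5 and chromosome III 2.

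None of the 10 lay in an annotated centromere, and all were far from the ends of the annotated sequences. The nearest to a centromere record was pht1, at 99 kb, followed by hht2 and hhf2 at 237 kb, hta2 at 263 kb, hta1 at 274 kb and htb1 at 275 kb. The hht1 and hhf1 genes lay 910 and 909 kb from the centromere of chromosome I, and hht3 and hhf3 lay 1891 and 1892 kb from that of chromosome II. Distances to the nearest end of the annotated sequence ran between 879 kb for hht1 and 1526 kb for hta2.

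The coordinates of 4 of the genes depended on the annotation. The start codons of hht3 and hhf3 lay 6539 bp further along chromosome II in the all-chromosomes annotation than in the tetarr6 annotation. Those of hta1 and htb1 lay at a difference of -1213 bp on chromosome III between the same annotations, and of -1807 bp between the all-chromosomes annotation and RefSeq. For the 6 others, hht1, hhf1, hht2, hhf2, hta2 and pht1, the difference was 0 bp. Both genes of a pair moved by the same amount, so spacing within a pair did not change with these steps.

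**Figure D1:**
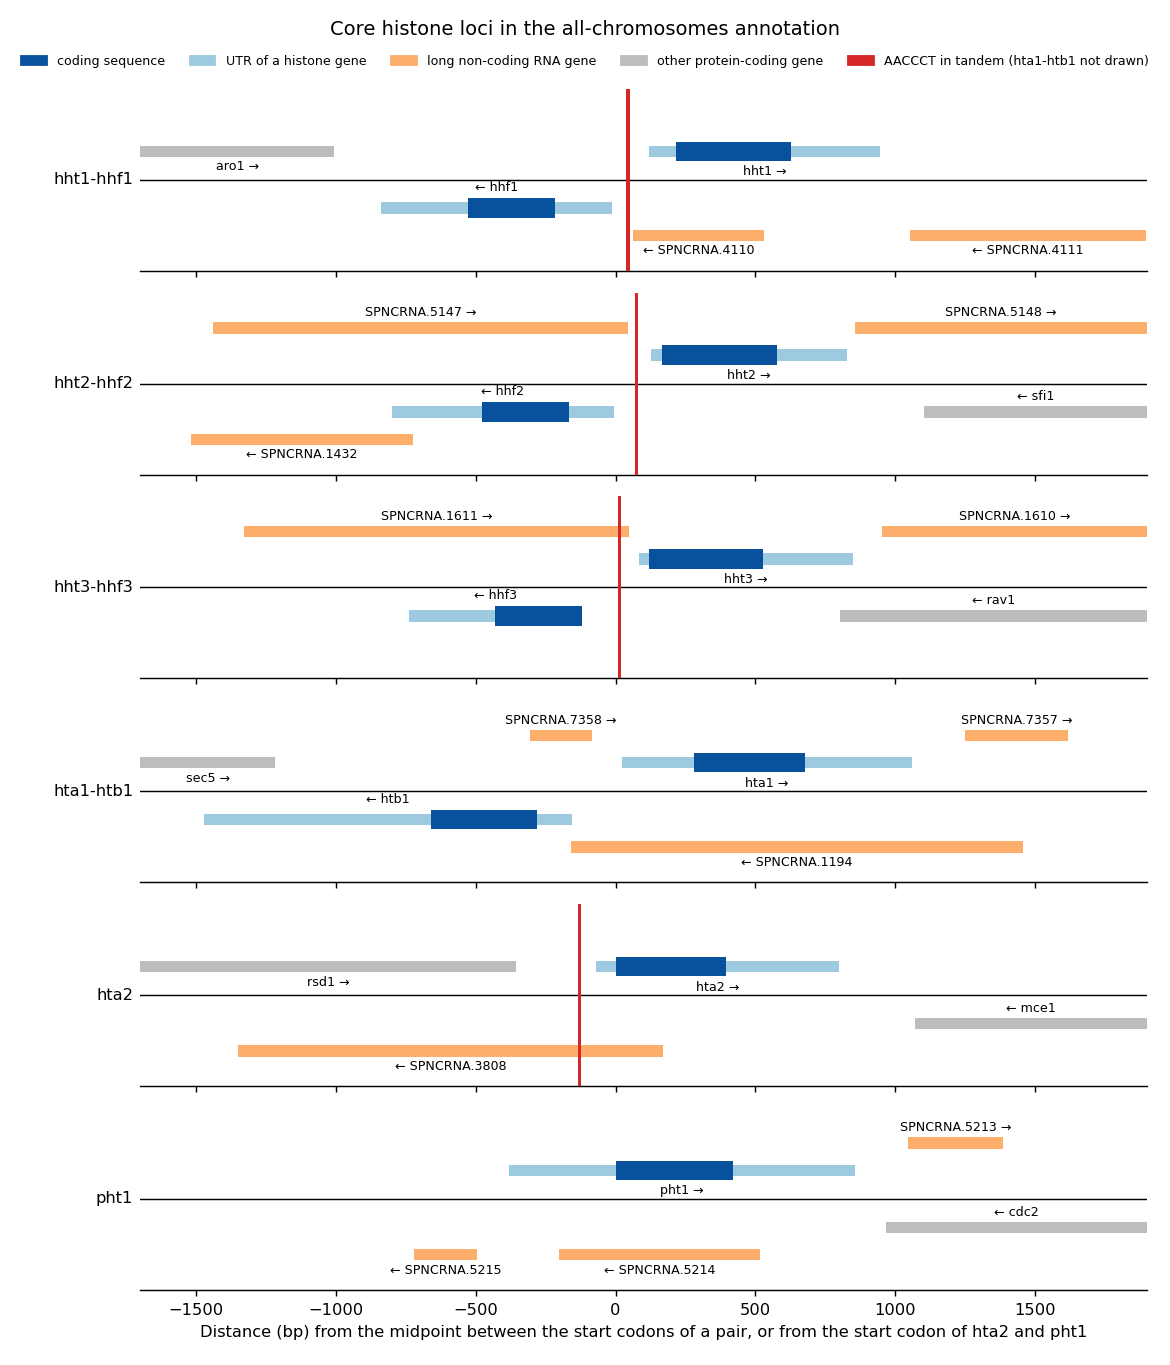
Maps of the 6 core histone loci in the all-chromosomes annotation, with distance in bp from the midpoint between the start codons of a pair (or from the start codon of hta2 and pht1) on the horizontal axis; boxes above and below each line are features that read rightward and leftward, and each locus is drawn so that the H3 or H2A gene reads to the right. The tandem AACCCT (red) lies between the genes of each of the 3 H3-H4 pairs and before hta2, none was found at pht1, and the copy between hta1 and htb1 is not drawn.

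The H3-H4 and H2A-H2B genes formed 4 divergent pairs, hht1-hhf1, hht2-hhf2, hht3-hhf3 and hta1-htb1, in which neighbouring genes are transcribed away from each other. The upstream protein-coding neighbour was divergent for 9 of the 10 genes, against 54.9% of all protein-coding genes, and for 8 of the 9 that neighbour was another core histone gene. The ninth was pht1, whose divergent neighbour, 1653 bp away, was shy1, a gene for a mitochondrial assembly factor of cytochrome oxidase. The tenth, hta2, had rsd1 upstream in the same orientation at 285 bp. The downstream neighbour was convergent for 8 of the 10, against 54.8% of all protein-coding genes.

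The distance between the gene records of a pair was 132 bp for hht1-hhf1, 134 bp for hht2-hhf2, 177 bp for hta1-htb1 and 201 bp for hht3-hhf3, with a median of 155.5 bp. The other 1399 divergent pairs of protein-coding genes had a median of 761 bp, with quartiles of 282 and 1290 bp. All 4 histone pairs lay below the lower quartile, and yet such spacing was not rare: 13.1% of the other pairs were closer than hht1-hhf1, 13.2% closer than hht2-hhf2, 17.9% closer than hta1-htb1 and 20.4% closer than hht3-hhf3. Measured between start codons, the pairs were 432 bp (hht1-hhf1), 334 bp (hht2-hhf2), 237 bp (hht3-hhf3) and 561 bp (hta1-htb1) apart, with a median of 383 bp. The other pairs had a median of 1024 bp between start codons, with quartiles of 590.5 and 1640 bp. By this measure hht3-hhf3 was the closest of the 4, with 5.65% of the other pairs closer, and hta1-htb1 the widest, with 23.5% closer.

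The order of the pairs depended on where a gene is taken to begin. In the tetarr6 annotation the records of hht2 and hhf2 overlapped by 3 bp and those of hht3 and hhf3 by 1 bp, while hht1-hhf1 were 146 bp and hta1-htb1 172 bp apart. The all-chromosomes distances equalled those in RefSeq for all 4 pairs. The distance between start codons was the same in the all-chromosomes, tetarr6 and RefSeq annotations for 4 of 4 pairs. The pairs therefore differed between annotations in the drawn 5′ ends of the transcripts and not in the coding sequences.

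**Figure D2:**
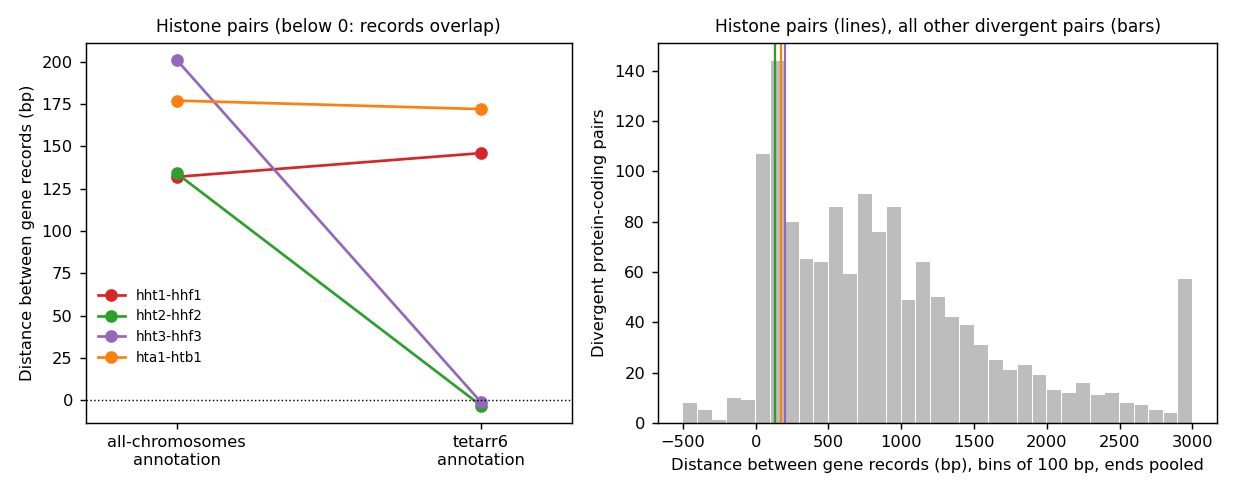
Left, distance in bp between the gene records of each of the 4 divergent histone pairs in the all-chromosomes and tetarr6 annotations, where a value below 0 is an overlap; right, the same distance for the 1399 other divergent protein-coding pairs of the all-chromosomes annotation (bars, number of pairs per bin of 100 bp, with the outermost bins holding everything beyond) and for the histone pairs (vertical lines). The 4 lines lie between 132 and 201 bp, below the lower quartile of 282 bp, and 2 pairs overlap in the tetarr6 annotation.

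Downstream distances were read for each gene and were not compared with those of other protein-coding genes. The 3′ end of htb1 overlapped that of sec5, an exocyst subunit gene, by 258 bp, and that of hht3 overlapped rav1 by 46 bp. The convergent pht1 and cdc2, the gene of the cyclin-dependent kinase that drives the cell cycle, ended 107 bp apart. The hhf1 record ended 166 bp from aro1, a gene of aromatic amino acid synthesis, hta2 ended 271 bp from mce1, and hht2 ended 276 bp from sfi1, a spindle pole body gene. The convergent neighbours of hhf3 and hta1 lay further off, SPBC1105.13c at 854 bp and SPCC622.07 at 1000 bp. The remaining downstream neighbours were in tandem: alg9, a glycosylation gene, at 1707 bp from hht1, and vps68 at 2019 bp from hhf2.

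The coding sequences had no introns: 0 of the 10 genes had an intron record and all 10 had a single coding block, against 48.1% of protein-coding genes with an intron record. The sequences were also short. The H3 genes each had 411 bp of coding sequence with the stop codon, for 136 residues, and the H4 genes 312 bp, for 103 residues. The hta1, hta2, htb1 and pht1 genes had 399, 396, 381 and 420 bp, for 132, 131, 126 and 139 residues. Over all protein-coding genes the median coding length was 1137 bp, with quartiles of 675 and 1752 bp. Between 5.1% of those genes (for H4) and 11.6% (for pht1) were shorter.

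The 3 H3 genes encoded one and the same protein. Their proteins were 100% identical over 136 residues, and the first 30 bases of each coding sequence show how the genes differ without changing it. The lines give these bases in RefSeq ASM294v3, 5′ to 3′ on the coding strand, with the codons of lysine 4 and lysine 9 in capitals, residues being counted from the alanine after the initiator methionine. The hht1 bases lay at chrI:4699829-4699858 on the plus strand, those of hht2 at chrII:1365158-1365187 on the plus strand and those of hht3 at chrII:3529500-3529529 on the minus strand.
hht1: atggctcgtactAAAcaaacagctcgtAAG
hht2: atggctcgtaccAAGcaaactgctcgtAAA
hht3: atggctcgtactAAGcaaactgcacgtAAA

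Lysine 4 was encoded by AAA in hht1 and by AAG in hht2 and hht3, and lysine 9 by AAG in hht1 and by AAA in hht2 and hht3. Over the whole coding sequences, hht1 and hht3 shared 92.6% of 408 bases, hht1 and hht2 88.7%, and hht2 and hht3 88.2%. The codons that differed numbered 29, 44 and 45 in these pairs, and 0 of them changed the residue. The H4 genes were likewise identical in protein over 103 residues. Their bases were 93.2% identical between hhf1 and hhf3 and 91.3% identical both between hhf1 and hhf2 and between hhf2 and hhf3. No reads were analysed here, so whether they can be assigned to 1 copy was not tested.

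The H2A proteins differed slightly. Those of hta1 and hta2 were 97.7% identical over 132 aligned columns, with 1 gap and the substitutions T120Q and R123K, the hta1 residue first and positions counted without the initiator methionine. Their bases were 86.8% identical over 393 positions, less than in any pair of H3 or H4 genes. The H2A.Z protein of pht1 was 53.6% identical to that of hta1 and 54.3% identical to that of hta2.

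Codon use also set the genes apart from one another. The share of G or C at the last codon position was 47.2% in htb1, the highest of the 10, and 29.3% in pht1, the lowest, against a median of 32.8% and quartiles of 30.5 and 35.6% over all protein-coding genes. Between these, hht2 had 39.4%, hta1 38.3%, hhf2 37.5%, hta2 37.1%, hht1 36.5%, hhf3 33.7%, hhf1 32.7% and hht3 32.1%. Of the lysine codons, 12 of 13 were AAG in hht3, 11 of 13 in hht1 and in hht2, and 14 of 17 in htb1. The counts were 9 of 11 in hhf2 and in hhf3, 8 of 11 in hta2, 7 of 11 in hhf1 and 6 of 10 in hta1. The lowest share of AAG among the 10 was that of pht1, with 4 of 13. A share of AAG over all protein-coding genes was not computed.

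A large part of each transcript was untranslated. In the all-chromosomes annotation a 3′ UTR record was present for 10 of the 10 genes, against 92.4% of protein-coding genes, and a 5′ UTR record for 9 of the 10, against 88.3%. The gene without one was hhf3, whose record began at its start codon. The 3′ UTR was longer than the 5′ UTR in all 10 genes, against 72.7% of protein-coding genes, with an absent record counted as 0 bp. The UTRs together were longer than the coding sequence in 7 of the 10, against 16.1%. They made up between 41.3% of the messenger RNA for hht2 and 71.1% for htb1. The median was 27.07% over the 4337 protein-coding genes with both records, with quartiles of 15.91 and 42.31%. The histone coding sequences that enter these shares were 312 to 420 bp long, against a median of 1137 bp over all protein-coding genes.

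The 3′ UTRs of the H3 and H4 genes were close to one another in length. They were 321, 250 and 319 bp in hht1, hht2 and hht3, and 312, 323 and 310 bp in hhf1, hhf2 and hhf3, so that 5 of these genes fell between 310 and 323 bp. The H2A genes had 380 bp (hta1) and 406 bp (hta2), and pht1 had 439 bp. The htb1 gene had the longest, 813 bp, longer than in 88.3% of genes with a 3′ UTR record, and this is the 3′ UTR that overlapped sec5. The median of the 10 was 322 bp, against 261 bp with quartiles of 149 and 465 bp over 4725 genes, and 9 of the 10 lay above that median.

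The 5′ UTRs varied more. Among the H3 genes they were 97 bp in hht1, 39 bp in hht2 and 36 bp in hht3, and among the H4 genes 203 bp in hhf1 and 161 bp in hhf2. The H4 gene thus had the longer 5′ UTR in both H3-H4 pairs with 2 records. In the tetarr6 annotation this held for the same pairs, but not for the remaining pair, with 128 bp in hht3 and 110 bp in hhf3. In the H2A-H2B pair of the all-chromosomes annotation hta1 had 259 bp and htb1 125 bp, while hta2 had 71 bp. The longest was that of pht1, 383 bp, longer than in 89.9% of genes with a 5′ UTR record. The median of the 9 was 125 bp, against 97 bp with quartiles of 41 and 210 bp over 4514 genes, with 5 of the 9 above that median and 3 below.

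**Figure D3:**
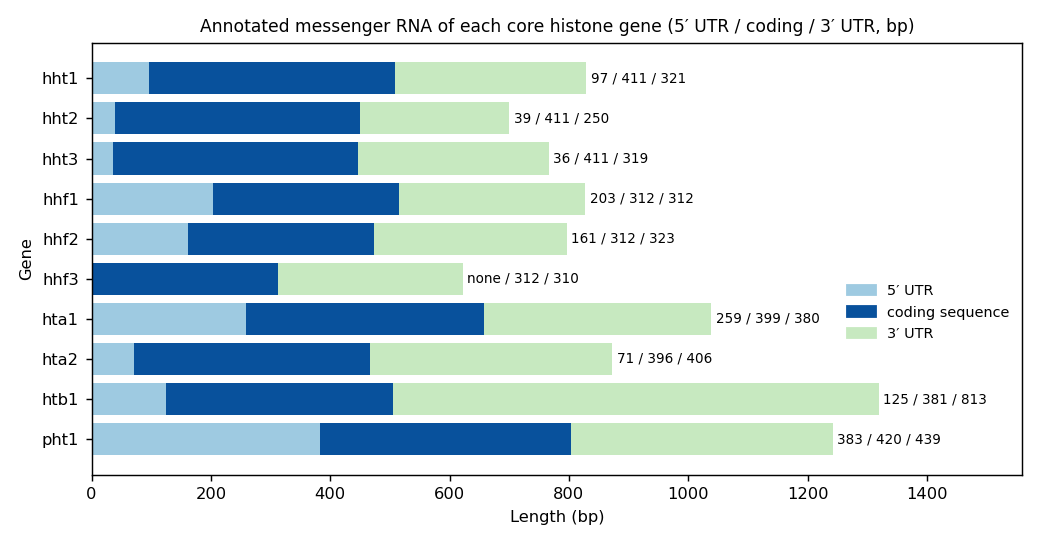
Lengths in bp of the 5′ UTR (light blue), coding sequence (dark blue) and 3′ UTR (green) of each core histone gene in the all-chromosomes annotation, with the values printed beside each bar. The 3′ UTR is the longer UTR in all 10 genes, hhf3 has no 5′ UTR record, and htb1 has the longest 3′ UTR at 813 bp.

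The annotations disagreed on the 5′ UTRs and not on the 3′ UTRs. The 3′ UTR length was equal in the all-chromosomes and tetarr6 annotations for 10 of the 10 genes, against 99.6% of protein-coding genes with a record in both. The 5′ UTR length was equal for 0 of the 10, against 0.62% of protein-coding genes, so that the histone genes did as nearly all genes do. It was shorter in the all-chromosomes annotation for 8 genes and longer for 2, with no share over all protein-coding genes computed for comparison. For the H3 genes it was 97 bp against 138 bp in the tetarr6 annotation (hht1), 39 against 117 bp (hht2) and 36 against 128 bp (hht3). For the H4 genes it was 203 against 148 bp (hhf1), 161 against 220 bp (hhf2) and absent against 110 bp (hhf3). For the others it was 259 against 292 bp (hta1), 71 against 150 bp (hta2), 125 against 97 bp (htb1) and 383 against 407 bp (pht1). The all-chromosomes lengths equalled those of RefSeq in 10 of 10 genes, for both UTRs.

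Long non-coding RNA genes overlapped 7 of the 10 genes by at least 1 bp, a share close to the 76.6% of all protein-coding genes that are overlapped. In each of the 7 at least one overlapping RNA gene lay on the opposite strand, and opposite-strand overlap was found for 75.5% of protein-coding genes. A gene was wholly inside a long non-coding RNA gene in 3 cases, against 7.12% of protein-coding genes. That share is over genes of every length. The 3 records were 622, 796 and 1038 bp long, and genes of like length were not compared. All 7 had part of their coding sequence overlapped, while 71.6% of protein-coding genes had an overlapped coding span. In the 9 overlaps 8 RNA genes took part, 3 of which were also in the tetarr6 annotation and 5 of which were not.

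The 3 genes covered over their whole length were hhf2, hhf3 and hta1. The hhf2 gene lay inside SPNCRNA.5147, an opposite-strand record of 1487 bp that ended in the space between hhf2 and hht2, and its 3′ end was also overlapped for 79 bp by SPNCRNA.1432 on its own strand. The hhf3 gene lay inside SPNCRNA.1611, 1380 bp long, one end of which lay in the space between hht3 and hhf3, short of hht3. The hta1 gene lay inside SPNCRNA.1194, 1620 bp long, which crossed the space between the genes and reached 6 bp into htb1 on the strand of htb1.

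The others were overlapped in part. For hht1, SPNCRNA.4110 overlapped 414 bp on the opposite strand, 49.9% of the gene and 77.1% of its coding sequence. For pht1, SPNCRNA.5214 overlapped 722 bp, 58.1% of the gene and 100% of its coding sequence, without covering the gene start. For hta2, SPNCRNA.3808 overlapped 242 bp, or 27.7%, and for htb1, SPNCRNA.7358 overlapped 151 bp, or 11.4%. A long non-coding RNA gene covered the gene start of 6 of the 10 genes, against 44.8% of protein-coding genes. No overlap was annotated for hht2, hht3 and hhf1, so each of the 3 H3-H4 pairs had a single overlapped gene.

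The all-chromosomes annotation lists 7157 long non-coding RNA genes, against 1566 in the tetarr6 annotation, where fewer overlaps stood. The classes were not defined alike. A long non-coding RNA transcript record defined them in the all-chromosomes annotation. In the tetarr6 annotation they were genes with a miscellaneous RNA record and an identifier beginning with SPNCRNA. In the tetarr6 annotation 4 of the 10 were overlapped, against 25.3% of its 5120 protein-coding genes. The overlap was 79 bp for hhf2, 732 bp for hhf3, 1071 bp for hta1 and 59 bp for hht3, with SPNCRNA.1611 on its own strand. The hht3 overlap was absent from the all-chromosomes annotation, in which the 5′ UTR of hht3 is shorter.

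The tandem AACCCT shown at the outset was searched in windows of 300 bases, from 250 before to 50 after each RefSeq gene start, on both strands. At least 1 AACCCT stood in the windows of 9 of the 10 genes, against 9.7% of 5112 protein-coding promoter windows. As a tandem repeat of 12 bases, AACCCTAACCCT, it stood in the same 9, against 0.391% of windows, or 20 windows, of which 9 were those of histone genes. The window of pht1 held 0 copies of AACCCT, which says only that these letters are not in that window.

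The 11 windows of other genes with a tandem copy were chosen for naming after the search. They were those of heat shock protein genes (ssa1, ssa2 and hsp90), of the translation factor genes eft201 and tif51, of the TATA-binding protein gene tbp1, of the bromodomain protein gene bdf2 and of the Ran GTPase gene spi1, besides erg1, ppc89 and SPAC27E2.11c. On chromosomes I to III the tandem repeat occurred 19 times in all, 5 of them at the histone loci. All 19 copies lay outside coding spans, 16 of them in a protein-coding promoter window and 3 in none. A match is a stretch of letters and was not tested as a binding site.

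The copies shown lay 48 to 129 bases before the gene starts. The 129 bases are those to hhf3, which has no 5′ UTR record, so its gene start is its start codon. In the tetarr6 annotation hhf3 has a 5′ UTR of 110 bp, which places the copy nearer its gene start. Between the H3 and H4 genes the copy was 69 bases from the start of hht1 and 53 from hhf1, 48 from hht2 and 76 from hhf2, and 62 from hht3 and 129 from hhf3. It was 53 bases from hta2. The repeat read toward hht1, hhf2, hhf3 and hta2, so in the H3-H4 pairs it read toward H3 once and toward H4 in the other two. At 2 of the 4 loci shown it lay inside a long non-coding RNA gene, SPNCRNA.1611 between hht3 and hhf3 and SPNCRNA.3808 at hta2. The share for like positions before other genes was not computed. For the gene start itself, 44.8% of protein-coding genes were covered by a long non-coding RNA gene.

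Whether the copy was upstream of the transcript depended on the annotation. It lay before the gene start of all 9 genes in the all-chromosomes annotation. In the tetarr6 annotation it lay before the gene start of 6 and inside the 5′ UTR of 3, hht2, hht3 and hta2, the H3 and H2A genes whose drawn 5′ UTR was 117, 128 and 150 bp there. Counted from the start codon, the copy was 87 bases upstream of hht2, 98 of hht3 and 124 of hta2. Among the genes of the 4 sites shown, it was farthest from the start codon of hhf1, at 256 bases.

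**Figure D4:**
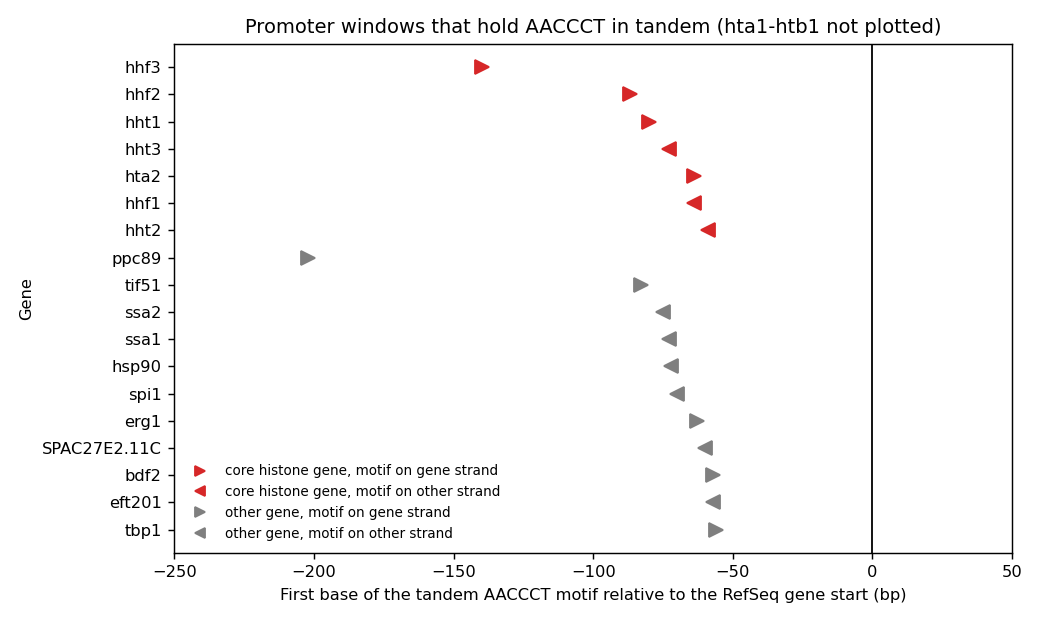
Position of the first base of the tandem AACCCT relative to the RefSeq gene start (horizontal axis, bp, from 250 before to 50 after) in the promoter windows that hold it, those of core histone genes other than hta1 and htb1 (red) above those of 11 other genes (grey), with the triangle pointing right where the motif is on the strand of the gene and left where it is on the other strand. The histone sites lie between -140 and -59 bp, and every site plotted lies before the gene start. The site at -140 bp is that of hhf3, whose record begins at its start codon.

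Other genes of histone biology, from lists chosen for their known roles, were read for the same traits. Of 48 listed genes 47 were found. An intron was annotated in 15 of the 47, a divergent upstream neighbour in 26, an overlapping long non-coding RNA gene in 39 and a tandem AACCCT in 0. Over all protein-coding genes or their promoter windows the shares were 48.1%, 54.9%, 76.6% and 0.391% in the same order. The centromeric H3 variant gene cnp1 (SPBC1105.17, chromosome II, 3545043 to 3546702, plus strand) had 0 introns and a 3′ UTR of 1200 bp. Its divergent neighbour was rpr2, which is not a histone gene, and 2 long non-coding RNA genes overlapped it.

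Among the 6 genes of histone gene transcription and the HIRA chaperone complex, 3 had an intron and 3 a divergent neighbour. They include ams2, with 1 intron and a 3′ UTR of 882 bp. Among the 12 histone chaperone genes 3 had an intron and 7 a divergent neighbour, among them pcf1, a subunit gene of the CAF-1 complex, with 0 introns. Of the 9 SWR1 complex genes found, whose products exchange H2A for H2A.Z, 4 had an intron and 4 a divergent neighbour. Of the 6 INO80 complex genes 2 had an intron and 4 a divergent neighbour. Of the 13 H3 and H4 modifying enzyme genes, which include clr4, set1 and mst2, 3 had an intron and 7 a divergent neighbour.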

How the data were processed

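The series labels describe chromatin immunoprecipitation and sequencing of 87 fission yeast libraries in 44 groups. The submitters' processing notes name Trimmomatic and BWA; versions and build were not given in the sources used here. Both deposited files hold annotated features, with values that are positions in bp and belong to no library. Per the file headers, PomBase is the source of the all-chromosomes annotation, and Geneious 7.1.5 exported the tetarr6 annotation. No deposited file used here gives counts, signal or another value per library, so no test was run and depth is unknown.

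The members and gene lists were chosen with earlier results of these data known. Genes were matched between annotations by systematic identifier, and listed genes by name; vps72 was not matched. Protein-coding genes were those with a messenger RNA record. Neighbours were ordered by the start of the coding span, a rule set after the data were examined, because ordering by gene record misplaced convergent genes with overlapping 3′ UTRs. UTR lengths are of the first transcript, and a UTR record listed more than once (hhf1 and 2 other genes, 3 in all) was counted once. The first and last annotated positions stood for chromosome ends.

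Sequences are from RefSeq (ASM294v3), read only by its own coordinates, since chromosomes II and III of the all-chromosomes annotation are shifted against it. The sequence and position of 1 site are not reported here. AACCCT comes from general knowledge of fission yeast histone promoters. Promoter windows ran from 250 bases before to 50 after a gene start. Proteins were aligned globally (gap opening 10, extension 0.5). Named genes were the 10 histone genes, their nearest protein-coding neighbours, overlapping non-coding genes and genes of the lists; others were named after their values were seen, as stated. Alternatives were another annotation, neighbour rule, transcript, overlap, strand, motif, window and gap rule. Overlaps, UTR lengths and motif search were tested on simulated data. Scripts ran in Python 3.11.15 with Biopython 1.88, numpy 2.4.6 and matplotlib 3.10.9.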

Additional observations from a re-analysis of the deposited data

How the results depend on the processing

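No paired analysis was possible because neither deposited annotation holds library values. For 13 results 42 alternative values were computed, of which 27 stayed at or near the value reported, 13 moved and 2 changed sign. Those that stayed include the RefSeq values. RefSeq has the UTR lengths of the all-chromosomes annotation in 10 of 10 genes, so it is not an independent check. UTR lengths taken as gene span less coding span also had to stay, since the genes have no introns. Counting every gene record as a neighbour left 1 divergent pair of the 4, since long non-coding RNA records come between the genes of the other three in order of position. The median distance within a pair, 155.5 bp, became 383 bp between start codons and 72.5 bp in the tetarr6 annotation, where the distances of hht2-hhf2 and hht3-hhf3 became -3 and -1 bp. The median 5′ UTR of 125 bp, over the 9 genes with a record, became 143 bp in the tetarr6 annotation, where hhf3 also has a record, of 110 bp. The genes overlapped by a long non-coding RNA, 7 at 1 bp or more, numbered 4 with at least 50% of the gene overlapped and 4 in the tetarr6 annotation. The share of protein-coding genes overlapped in the tetarr6 annotation was 25.3%, and no share was computed for the 50% rule. The identity of hta1 and hta2, 97.7%, was 98.5% without the gap. Loci, intron counts, 3′ UTR lengths and motif counts kept their values under the alternatives run, except that the 300 bases before the start codon held AACCCT in 8 genes in place of 9. A share over all protein-coding genes was not computed for that window. The count of divergent pairs in the tetarr6 annotation (4), its UTR lengths and this last window were chosen after seeing the data. All values rest on how the annotations draw transcripts, which no library here could check.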
